A study of Rattus norvegicus with 18 samples.

Results

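Among the transcripts listed for rat kidney, 121 were detected in every normotensive animal and listed at 0 in every untreated hypertensive animal. They were selected on these values: above 0 in all 6 Wistar-Kyoto (WKY) libraries and exactly 0 in all 6 untreated spontaneously hypertensive rat (SHR) libraries. They make up 3.02% of the 4005 transcripts listed for both strains and are called WKY-only transcripts below. The difference between the strains is what chose them, so their WKY and SHR values are a description and carry no test.

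Kidney tissue was profiled in 3 groups of 6 libraries by RNA sequencing after removal of ribosomal RNA. WKY and SHR received double distilled water, and the third group, SHR+Iso, was made up of SHR that also received isoliensinine, a plant alkaloid, at a daily 5 mg/kg. Each regime lasted 10 weeks. Strain and blood pressure differ together between WKY and SHR and cannot be told apart, and in whole kidney fewer cells of a type cannot be told apart from less RNA per cell. The labels name the libraries as separate samples, and the p-values below measure the spread between these samples.

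WKY is a strain with normal blood pressure derived from Wistar rats, and SHR was bred from the same stock by selecting for high blood pressure. One gene can give several transcripts, called isoforms, which differ in start site, splicing or end. A quantification program divides the reads of a gene among its isoforms, so the values of isoforms of 1 locus depend on each other. A transcript can therefore be listed at 0 while its gene is expressed through another isoform.

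Each value is the authors' normalized abundance, without a stated scale, and transcripts carry either an Ensembl ID or an ID of a merged assembly, written MERGE, locus number, isoform number. The files do not pair the IDs with gene names, and 0 of the 121 were found in the rat gene table used here (RefSeq, assembly GRCr8). Gene functions, positions, sequences and kidney cell markers are therefore not given. The values of the listed transcripts summed to 16176.6 to 18095.8 in a WKY library and to 15382.3 to 17937.5 in an SHR library. These sums are not library totals, since the lists hold part of the transcriptome that had been selected for differences between groups, and in no listed transcript was the higher of both strain means below 0.500.

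Of the WKY-only transcripts, 114 were assembled ones from 103 loci and 7 had an Ensembl ID. The Ensembl share was 5.79%, beside 20.7% of all 4005. Isoform number 1 was carried by 73 of the 114, or 64.0%, and by 41.3% of the 3177 assembled transcripts listed. The same number, 73 of 114, were the only isoform listed for their locus, which is close to the 65.5% over all assembled transcripts. In the reverse set, the 87 transcripts above 0 in all SHR and at 0 in all WKY libraries, 42 of 80 assembled ones carried isoform number 1 and 52 were the only isoform listed.

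The WKY means of the members ran from 0.517 to 103.6 with a median of 1.69 and quartiles of 0.954 and 4.43. Such low levels were general to the list: the median WKY mean was 1.74 for the 1574 other transcripts above 0 in all WKY libraries with a higher WKY mean, and the median SHR mean of the reverse set was 1.18. The mean lay below 1 for 32 of them, from 1 to under 2 for 39, from 2 to under 5 for 24, from 5 to under 10 for 15, and at 10 or more for 11. Those 11 held 59.2% of the summed mean of all 121. The Ensembl transcripts had a median mean of 8.57 and the assembled ones of 1.58.

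**Figure D1:**
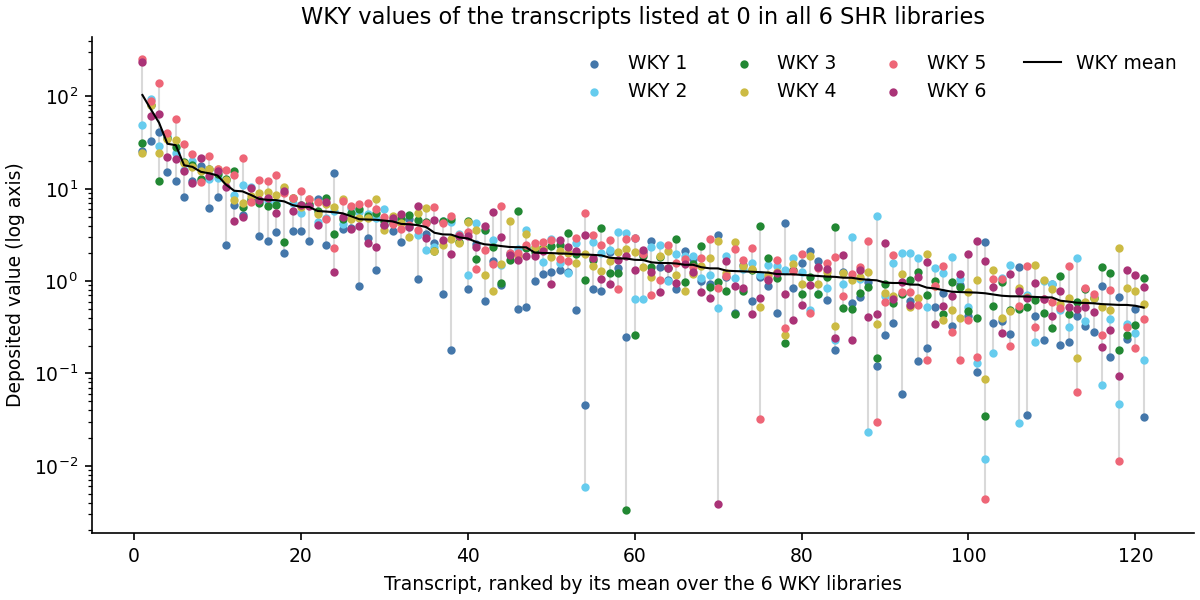
Deposited values of the 121 WKY-only transcripts on a log axis, ranked by their WKY mean (black line); each dot is 1 of 6 WKY libraries and grey lines join the lowest and the highest. Means run from 103.6 down to 0.517, and WKY replicate 1 (dark blue) is the lowest library for 54 transcripts.

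The most abundant member, MERGE.19286.4, was split between libraries. Its values were 25.9, 48.8, 31.3, 24.6, 252.3 and 238.7 in WKY replicates 1 to 6. Replicates 5 and 6 lay far above the other 4, so that its mean of 103.6 described none of the libraries. MERGE.15033.1 had values of 40.7, 29.1, 12.2, 24.2, 140.6 and 64.0, again highest in replicates 5 and 6. The coefficient of variation (SD divided by the mean) was 1.07 for the former and 0.906 for the latter.

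The other abundant members varied less. ENSRNOT00000049573 had values of 32.8, 92.9, 80.8, 80.8, 89.5 and 60.7 in replicates 1 to 6, a mean of 72.9 ± 22.6 (SD, n = 6). MERGE.6737.1 had 15.4, 36.8, 35.5, 35.0, 39.8 and 21.9. In both, replicate 1 was lowest and replicate 6 next lowest, while the other 4 lay close together. MERGE.20914.1 ranged from 12.3 in replicate 1 to 57.5 in replicate 5, with a mean of 29.6 ± 15.4 (SD, n = 6).

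MERGE.15269.1 had a mean of 18.0 ± 7.21, MERGE.20415.1 of 17.3 ± 4.69 and MERGE.20244.1 of 14.7 ± 5.39 (SD, n = 6 each). Replicate 5 was the highest library for all 3, and replicate 1 the lowest for the first and the third of them. MERGE.11398.1 had a mean of 13.9 ± 3.14 and MERGE.18246.9 of 11.1 ± 4.60 (SD, n = 6 each). The latter had 2.49 in replicate 1 and 10.5 to 16.1 in the other 5.

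Annotated transcripts among the members covered nearly the whole range of levels. ENSRNOT00000091389 went the other way from most abundant members, with its highest values in replicates 6 and 1: 17.8, 12.3, 12.8, 15.5, 11.8 and 21.4 in replicates 1 to 6. ENSRNOT00000044520 was the steadiest of the 7, at 7.43, 10.5, 7.77, 8.41, 7.23 and 10.1, a coefficient of variation of 0.164. ENSRNOT00000052292 had a mean of 9.52 ± 4.40 and ENSRNOT00000076901 of 5.67 ± 2.06 (SD, n = 6 each). The remaining 2 were low and uneven. ENSRNOT00000057855 lay between 0.436 and 2.63, and ENSRNOT00000043861 between 0.0629 and 1.78. No other isoform could be looked up for these 7, since an Ensembl transcript ID does not name its gene.

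Spread between WKY libraries was wide for the low members. The median coefficient of variation was 0.472 over the 121, 0.365 over the 26 with a mean of at least 5 and 0.681 over the 32 with a mean under 1. It was 0.419 over the 1574 other transcripts that were above 0 in all WKY libraries with a higher WKY mean, and 0.442 in SHR for the reverse set. The 6 values lay within 2-fold for 9 members and spanned over 10-fold for 26. Among members with a mean of at least 1, the steadiest were MERGE.242.1, at 2.57 to 3.23, MERGE.26401.1, at 3.51 to 5.07, and ENSRNOT00000044520. The least steady were MERGE.26402.5 (0.0295 to 5.04), MERGE.17672.4 (0.181 to 3.88) and MERGE.22326.4 (0.213 to 4.28). Each of these 3 owed its mean to 1 or 2 libraries.

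WKY replicate 1 was the low library for the WKY-only transcripts. It held the lowest of the 6 values for 54 of the 121, or 44.6%, while each other replicate did so for 9 to 19. Replicate 5 held the highest value for 42. Divided by each transcript's own WKY mean, the values had a median of 0.580 in replicate 1, 1.04 in replicate 2, 0.962 in replicate 3, 1.04 in replicate 4, 1.18 in replicate 5 and 0.900 in replicate 6. In replicate 1, 50 members lay under 0.5 of their mean, against 11 to 18 in the other replicates. Of the 26 members with a mean of at least 5, 23 were below their mean in replicate 1 and 4 in replicate 5.

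The same library was lower, by less, for other transcripts with a higher WKY mean. Over the 1574 of them its median was 0.807 and it held the lowest value for 31.3%. Over the transcripts above 0 in all WKY libraries with a higher SHR mean, the medians were 0.996 in replicate 1, 1.05 in replicate 6 and 0.750 to 0.917 in the other 4. Members with isoform number 1 had a median of 0.537 in replicate 1, and assembled members with another isoform number had 0.784.

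Relative depth could be read from the low values only under an assumption about their scale. Among transcripts with a value under 1 in both libraries compared, 22 to 36 of 758 to 826 shared 1 ratio of values between another WKY library and replicate 2, with a tolerance of 0.003 on the natural log scale, and at most 11 shared any other ratio. Such a common ratio can arise where both values stand for the same whole number of reads. If the values were scaled to the number of reads per library, it would put the library totals at 1.04 for replicate 1, 0.927 for replicate 3, 0.969 for replicate 4, 0.918 for replicate 5 and 0.929 for replicate 6, with replicate 2 as 1. Replicate 1 would then have the largest total, and it had the lowest member values. Replicate 5, with the most highest values, would have the smallest total, close to those of replicates 3 and 6. Whether depth bears on the member values was not tested. Without replicate 1, 135 transcripts met the rule, with a median level of 1.68 for the 121 and a median coefficient of variation of 0.426.

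**Figure D2:**
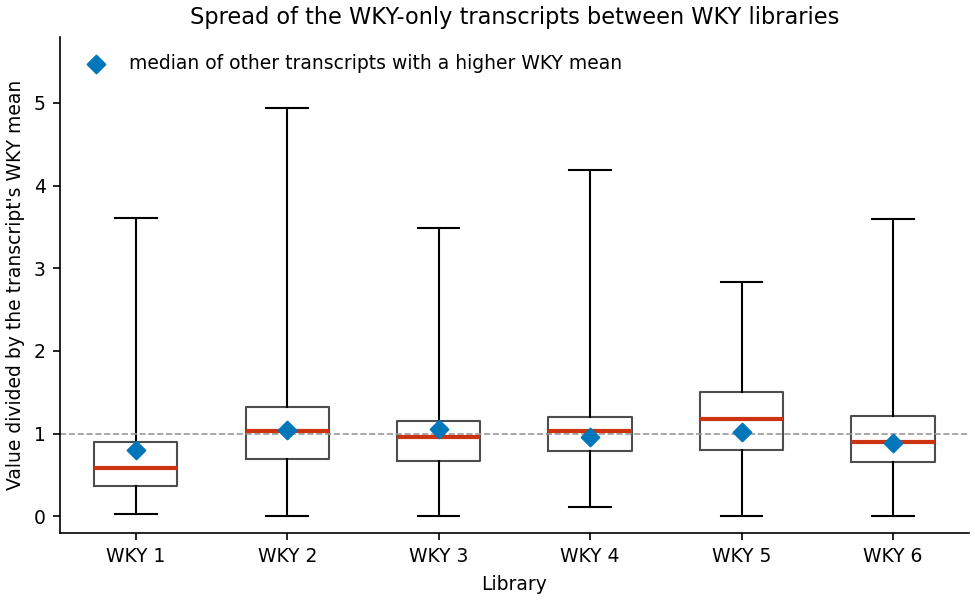
For each WKY library, the values of the 121 WKY-only transcripts divided by each transcript's WKY mean; boxes show quartiles, red lines medians and whiskers the full range. Replicate 1 has a median of 0.580; blue diamonds mark the median of the 1574 other transcripts with a higher WKY mean, 0.807 in the same library.

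The edge of the rule ran through very low values. Just inside it, MERGE.14931.2 had 0.0033 in replicate 3 with 0.248 to 3.35 in the other 5, MERGE.374.5 had 0.00387 in replicate 6 with 0.505 to 3.19 elsewhere, and MERGE.22361.2 had 0.00436 in replicate 5. At least 1 value under 0.1 occurred for 14 members, and 44 had at least 1 in all 6 WKY libraries. Just outside it, MERGE.4186.1 had 6.80 to 10.2 in WKY and MERGE.4186.2 had 1.67 to 6.08, with SHR values of at most 0.00289 and 0.00279. These transcripts of 1 locus stood outside although their WKY means were above those of most members. MERGE.9975.16, with a WKY mean of 0.998, missed the rule by 0.0034 in SHR replicate 4. Above 0 in all WKY libraries and in a single SHR library were 85 transcripts, 35 of them with that SHR value at or under 0.1.

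Another 49 transcripts were at 0 in all SHR libraries and in a single WKY library, which was replicate 5 for 16, replicate 1 for 14 and one of the others for 3 to 6 each. Some of these were abundant. MERGE.19280.1 had 9.64, 13.3, 0, 19.9, 14.9 and 4.08 in replicates 1 to 6, and MERGE.17672.5 had 6.58 to 18.3 in 5 libraries and 0 in replicate 5. MERGE.8746.27 had 53.2 and 32.3 in replicates 3 and 4 and at most 0.0248 elsewhere. An exact 0 thus also occurred within WKY, for transcripts whose mean was above that of most members.

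More than 1 member came from 9 loci, which held 20 members in all. In 7 of these loci the members were a pair, and over the 6 WKY libraries the pair had a negative correlation in 4 loci (-0.75 to -0.33) and a positive one in 3 (0.61 to 0.91). MERGE.26401.1 had 3.51, 4.74, 4.27, 5.07, 4.20 and 4.81 in WKY replicates 1 to 6, and MERGE.26401.4 had 4.72, 3.86, 5.20, 3.04, 4.07 and 3.86. Their sum stayed between 8.11 and 9.46, with a coefficient of variation of 0.0578 against 0.127 and 0.182 for the isoforms. The correlation between them over the 6 libraries was -0.75, a description of isoforms whose values depend on each other.

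The sum also varied less than each of its members in 5 further loci of the 9. For MERGE.25694.5 and MERGE.25694.6 the sum was 8.37 ± 1.08 (SD, n = 6), a coefficient of variation of 0.129 against 0.187 and 0.364. In MERGE.26402, isoform 5 supplied 5.04 of a summed 5.17 in replicate 2, while isoform 4 supplied 5.50 of 5.68 in replicate 5 and isoform 1 had its highest value, 2.70, in replicate 6. Different animals thus had most of the summed value of these members in different isoforms. In replicate 3, MERGE.14931.1 had 5.68 and MERGE.14931.2 had 0.0033, and the other 5 animals had both at 0.248 or more.

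Replicate 1 was low for several of these sums. It had 0.746 for MERGE.14931, where the others had 3.56 to 5.68. For MERGE.7726 it had 0.624, where the others had 3.63 to 5.73, and for MERGE.26402 it had 0.270, where the others had 1.57 to 6.27. These sums cover members alone. MERGE.26402.3, not a member, had 0.703 in replicate 1, and with it the lowest WKY sum of that locus was 0.973. MERGE.7136.1 and MERGE.7136.2 varied together, with a correlation of 0.91 over the 6 libraries, as did the pairs of MERGE.17672 (0.76) and MERGE.10632 (0.61). The sum of MERGE.7136 ranged from 1.51 in replicate 1 to 3.48 in replicate 5.

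**Figure D3:**
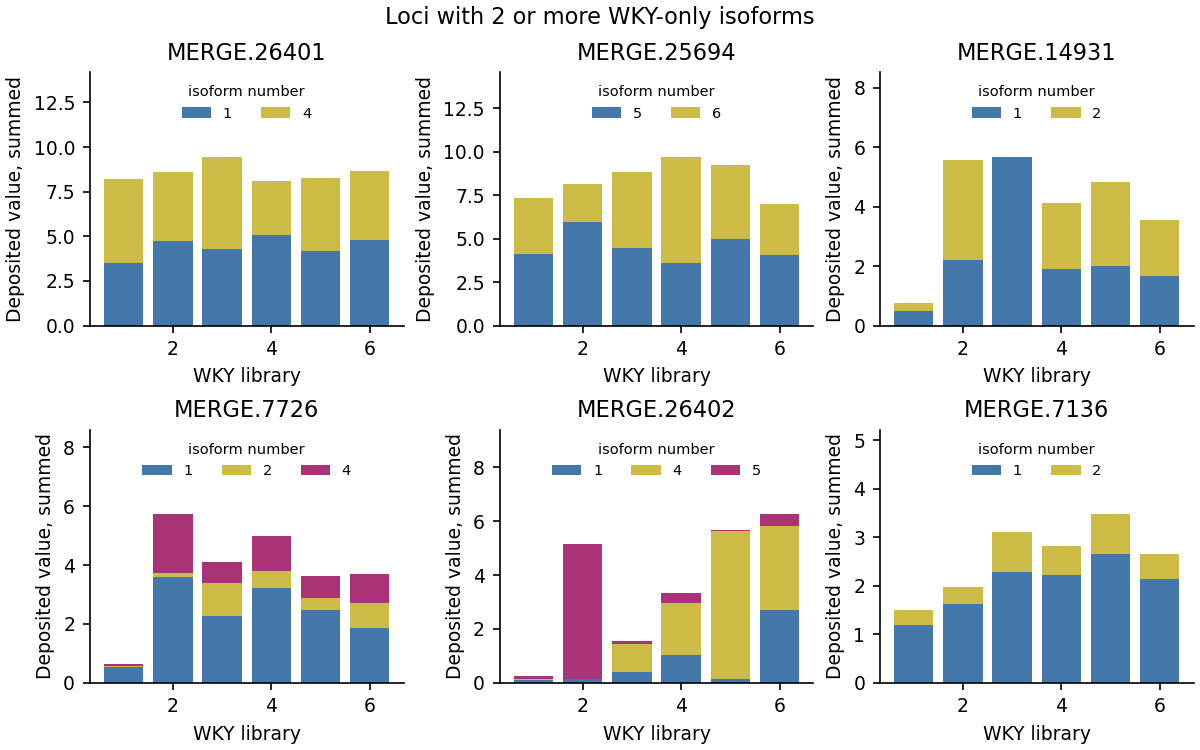
Summed deposited values of the WKY-only isoforms in 6 loci that hold 2 or more of them, for each WKY library, with isoforms stacked. The sum of MERGE.26401 stays between 8.11 and 9.46, while in MERGE.26402 a different isoform supplies most of the value in different animals.

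Some member loci carry neighbouring numbers, and the sources used here do not say what the numbering stands for. There were 4 pairs with consecutive numbers, chosen after their values were seen. The members of MERGE.13345 and MERGE.13346 had a correlation of 0.95 over the 6 WKY libraries, both being highest in replicates 5 and 6. The correlation was 0.07 for MERGE.10545 and MERGE.10546, -0.49 for MERGE.15653 and MERGE.15654, and -0.14 for the summed members of MERGE.26401 and MERGE.26402.

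For 76 of the 103 loci, WKY-only transcripts were the only ones listed. The other 27 loci held 94 further isoforms, 60 with a higher mean in WKY and 34 with a higher mean in SHR. A lean to WKY was also seen over all 4005 listed transcripts. Their median difference, SHR minus WKY in log2(value + 1), was -0.37, beside -0.67 for the 94. In 16 loci all of the further isoforms were higher in WKY, in 4 all were higher in SHR, and 7 had both kinds. The 6 and 6 values did not overlap for 21 isoforms higher in WKY, or 22.3%, where 15.6% of all 4005 listed transcripts showed this. For those higher in SHR it was 10 isoforms, or 10.6%, beside 12.8% of all listed. The shares of all listed are raised by the rule. The 623 transcripts without overlap and higher in WKY include the 121 members. The 512 higher in SHR include the 87 of the reverse set, 3 of which are among the further isoforms. The further isoforms were not picked by the rule, but they come from the members' loci. Their values therefore depend on those of the members, and the whole list had been selected for strain differences.

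SHR and WKY were compared for these isoforms with limma, a linear model fitted over all listed transcripts, on log2(value + 1). The fit took transcripts that reached 1 in 6 or more of the 12 libraries. Of the 30 further isoforms tested, 28 passed an adjusted p of 0.05, with a higher mean in WKY for 19 and in SHR for 9. The unadjusted p was under 0.05 for 29. Over all 1657 transcripts tested, 82.6% passed, 43.5% higher in WKY and 39% higher in SHR. A high share of calls was therefore general to this list. The filter fixed part of the calls, since an isoform under 1 in every library of 1 strain entered only by reaching 1 in all 6 libraries of the other. This was so for 14 of the 30, 10 through WKY and 4 through SHR, and all 14 were called. Of the other 16, which reached 1 in at least 1 library of each strain, 14 were called, or 87.5%, beside 79.2% of the 1388 such transcripts over the whole list. The median difference, SHR minus WKY on the log2 scale, was -1.23 for the 30 and 0.38 for all tested. Without the filter the medians were -0.67 for the 94 and -0.37 for all. Without any 1 SHR library the median of all tested turned as well, to between -0.61 and -0.56. That of the further isoforms was then -1.39 to -1.17. Without any 1 WKY library the median of all tested did not turn and was 0.46 to 0.55, and that of the further isoforms was -1.04 to -0.73. With a library left out the filter asked for 5 libraries, and 1815 to 1877 transcripts were tested. Of the members, 44 passed the filter, each only through its WKY values. The log2 differences below depend on the offset of 1. With an offset of 0.01 they were over 1.5 times as large for 12 of the 14 isoforms named by rule. Of the isoforms named by rule, MERGE.9252.1, MERGE.17672.1, MERGE.20266.3, MERGE.25694.7 and MERGE.15654.88 entered the fit through WKY alone. MERGE.9252.6, MERGE.12613.2, MERGE.22326.5 and MERGE.15654.50 entered it through SHR alone. The filter fixed part of their calls, so their adjusted p-values below are a description.

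**Figure D4:**
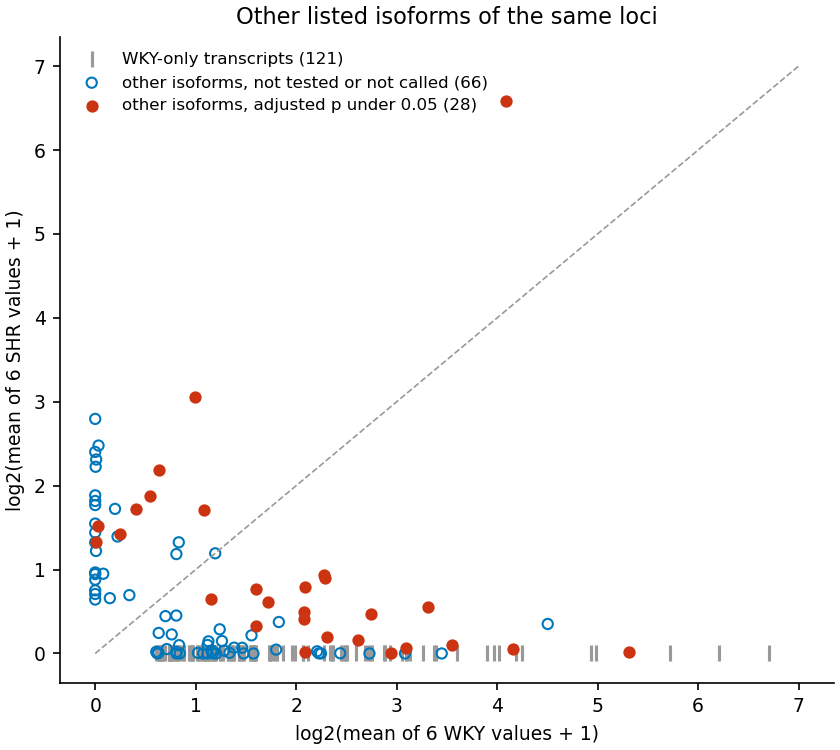
Mean WKY against mean SHR value, as log2(mean + 1), for the 94 further isoforms of loci that hold a WKY-only transcript; red dots passed the limma test (28) and grey ticks along the axis are the 121 WKY-only transcripts. Isoforms lie along both axes, 60 with a higher mean in WKY and 34 with a higher mean in SHR.

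In a first kind of locus, most of the summed value of the listed isoforms was on the WKY side. MERGE.9252.1 had 63.4, 26.4, 30.5, 31.7, 34.2 and 45.5 in WKY replicates 1 to 6, and in SHR it was 0.0543 and 0.0374 in replicates 1 and 4 and 0 in the others. The groups did not overlap, and limma gave a log2 difference of -5.22 ± 0.24 (SE, adjusted p = 1.83e-09), which was -11.0 with an offset of 0.01. The WKY-only isoform of this locus, MERGE.9252.5, had a mean of 5.74 ± 1.48 (SD, n = 6), well below isoform 1. SHR had small amounts of this locus through other isoforms. MERGE.9252.6 was at 1.68 ± 0.537 in SHR and 0.187 ± 0.150 in WKY (SD, n = 6 each), and limma put the log2 difference at 1.16 ± 0.15 (SE, adjusted p = 1.91e-05), or 3.36 with an offset of 0.01. MERGE.9252.7, at 0.240 to 0.914 in SHR, was listed at 0 in all WKY libraries and belongs to the reverse set.

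MERGE.17672 listed 8 isoforms, 2 of them WKY-only. Their sum was 45.1 ± 15.5 in WKY and 0.0544 ± 0.0341 in SHR (SD, n = 6 each), and the members made up 5.24% of the WKY sum. Its main isoform, MERGE.17672.1, had 7.10 in WKY replicate 1 and 15.8 to 22.2 in the other 5, against at most 0.0756 in SHR (log2 difference -4.03 ± 0.25 SE, limma adjusted p = 1.60e-08, and -8.72 with an offset of 0.01). Isoforms 2, 5, 7 and 8 were at 0 in all SHR libraries but also in at least 1 WKY library, and so missed the rule.

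MERGE.20266.3 was at 10.7 ± 3.18 in WKY and 0.0699 ± 0.0430 in SHR, and MERGE.25694.7 at 6.68 ± 1.08 in WKY and, in SHR, at 0.0424 in replicate 6 and 0 in the others (SD, n = 6 each). Their log2 differences were -3.41 ± 0.20 and -2.92 ± 0.15 (SE, limma adjusted p = 8.73e-09 and 3.22e-09), and -7.24 and -8.97 with an offset of 0.01. Over all listed isoforms, the SHR sum was under 10% of the WKY sum in 14 of the 27 loci. These sums include the members, which are at 0 in SHR by the rule. Members held over 50% of the WKY sum in 10 of the 27 loci. MERGE.25694 also had an isoform present in both strains, MERGE.25694.2, at 2.04 ± 0.168 in WKY and 0.703 ± 0.501 in SHR (SD, n = 6 each).

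In a second kind of locus, SHR had an isoform that was near 0 in WKY. MERGE.12613.2 was at 1.87, 1.96, 1.53, 2.23, 2.01 and 1.64 in SHR replicates 1 to 6 and at most 0.0540 in WKY. The log2 difference of these values was 1.49 ± 0.10 (SE, limma adjusted p = 2.18e-08), and 6.17 with an offset of 0.01. WKY had the members MERGE.12613.3 and MERGE.12613.4, with a summed 2.46 ± 0.971 (SD, n = 6). Summed over all 3 listed isoforms, the locus had 2.48 ± 0.968 in WKY and 1.87 ± 0.256 in SHR (SD, n = 6 each), and the groups overlapped.

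MERGE.22326.5 was likewise at 1.07 to 1.84 in SHR and at most 0.00641 in WKY, for which limma gave a log2 difference of 1.32 ± 0.10 (SE, adjusted p = 1.06e-07), or 3.97 with an offset of 0.1. The member MERGE.22326.4 had 4.28 in WKY replicate 1 and 0.213 to 1.32 in the others, and made up 37.9% of the WKY sum. The rest was almost all MERGE.22326.1, at 1.94 ± 1.52 in WKY and 0.161 ± 0.263 in SHR (SD, n = 6 each), which was above the member in WKY replicates 3 to 6. MERGE.22361 was less even. Its member MERGE.22361.2 had 2.66 and 1.64 in WKY replicates 1 and 6 and at most 0.0867 elsewhere, and MERGE.22361.3, which did not pass the filter, had 0.926 to 3.25 in SHR and 0.0711 to 0.335 in WKY. It is the only one of the 27 loci whose listed sum was higher in SHR, at 1.63 ± 0.833 against 0.905 ± 1.19 (SD, n = 6 each), with overlapping values. The listed sums lean to WKY by the rule, since the members are at 0 in SHR. Every further isoform had a higher mean in SHR in 4 of the 27 loci, and in WKY in 16.

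The locus of the most abundant member was also shared between strains. MERGE.19286.1 had 31.1, 155.2, 165.7, 36.4, 33.6 and 145.9 in SHR replicates 1 to 6 and 38.2, 1.73, 24.5, 29.7, 0.288 and 1.60 in WKY. The groups overlapped, and the log2 difference was 3.19 ± 0.91 (SE, limma adjusted p = 0.00893). It lay between 24.5 and 38.2 in WKY replicates 1, 3 and 4 and between 31.1 and 36.4 in SHR replicates 1, 4 and 5, so both strains had it at a like level in some animals. In WKY this isoform was lowest in replicates 2, 5 and 6, and MERGE.19286.4 was highest in those same 3. The sum of both isoforms was 119.6 ± 98.4 in WKY and 94.7 ± 67.1 in SHR (SD, n = 6 each). It was high in 2 of the 6 WKY and 3 of the 6 SHR animals, with a gap between the high and the low animals in both strains.

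In MERGE.15653 the strains had different leading isoforms. Isoform 5 had 4.60 to 11.1 in SHR and 0.406 to 1.86 in WKY, for which limma gave a log2 difference of 2.06 ± 0.25 (SE, adjusted p = 1.18e-05). Isoforms 9, 10 and 12 had higher means in WKY, with isoform 9 at 8.92 ± 2.40 against 0.467 ± 0.341 (SD, n = 6 each). The member, MERGE.15653.11, had 1.71 to 2.02 in 5 WKY libraries and 4.44 in replicate 4. The sum of the 7 listed isoforms was 21.1 ± 5.05 in WKY and 10.8 ± 3.65 in SHR (SD, n = 6 each), and the groups overlapped.

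The locus with the next number, MERGE.15654, listed 28 isoforms, the most of any member locus. Its member, MERGE.15654.76, had 0.773 to 5.66 in WKY and made up 4.53% of the WKY sum. Limma tested 6 of the others and called 3 higher and 2 lower in SHR. The first 3 were MERGE.15654.2, MERGE.15654.50 and MERGE.15654.64, with log2 differences of 1.54 ± 0.51, 1.25 ± 0.22 and 1.27 ± 0.33 (SE, limma adjusted p = 0.0178, 0.000379 and 0.00493). With an offset of 0.01 these were 5.64, 2.80 and 4.53. The larger difference of the lower pair was that of MERGE.15654.88, at -2.91 ± 0.28 (SE, limma adjusted p = 1.06e-06), or -8.32 with an offset of 0.01. The listed sum was 54.3 ± 27.1 in WKY and 45.2 ± 15.4 in SHR (SD, n = 6 each) and overlapped. In MERGE.6169, isoform 2 was higher in SHR by 0.67 ± 0.26 on the log2 scale (SE, limma adjusted p = 0.0299), or by 1.23 with an offset of 0.01, and this call was lost with the replicate block, without WKY replicate 1, 2, 5 or 6 and without SHR replicate 3, 5 or 6, with an adjusted p of up to 0.0616.

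**Figure D5:**
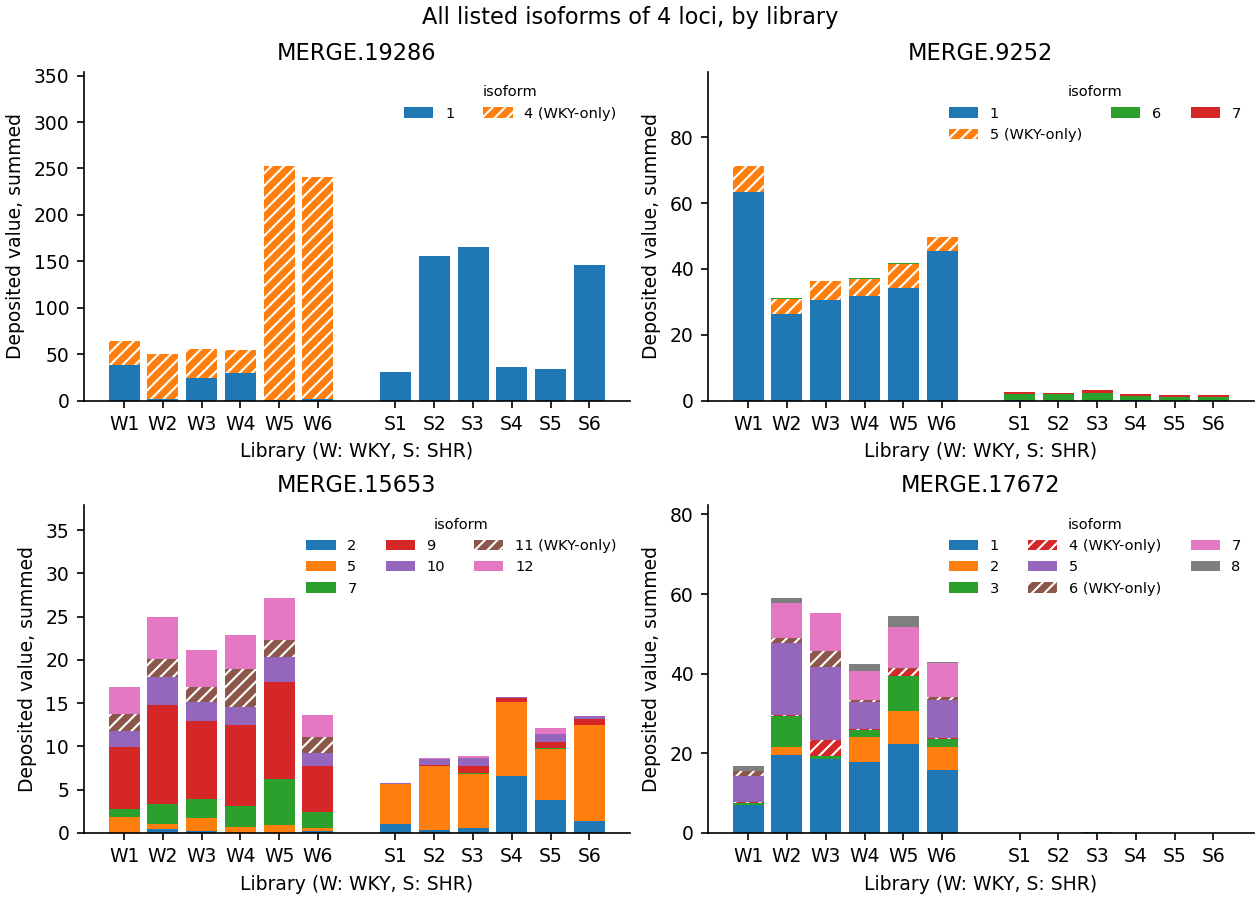
Deposited values of all listed isoforms of 4 loci, stacked, in the 6 WKY (W) and 6 SHR (S) libraries; hatched parts are WKY-only isoforms. MERGE.9252 is low and MERGE.17672 near 0 in SHR, while MERGE.19286 and MERGE.15653 are present in both strains, with isoform 1 of MERGE.19286 in some animals of each.

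Treated SHR could be read for 1 member. MERGE.374.5 had 3.19, 0.505, 0.967, 2.74, 0.836 and 0.00387 in WKY replicates 1 to 6 and 0 in all untreated SHR. In SHR+Iso it was 0.0613, 0, 0, 0, 1.60 and 1.61 in replicates 1 to 6. It was thus above 0 in 3 animals of the SHR strain, so for this member the name WKY-only describes the untreated groups alone. No other member was listed for SHR+Iso. That list had been selected too, so a missing ID is no measurement.

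Other isoforms were listed for SHR+Iso in 10 member loci, 19 in all, of which 11 were listed for that group alone. Of those listed for that group alone, MERGE.12007.3 had 0, 3.74, 0, 2.21, 2.39 and 1.75 in SHR+Iso replicates 1 to 6. MERGE.12007.1 was above 0 in all 6, at 1.48 and 2.29 in replicates 1 and 3 and at 0.0049 to 0.051 elsewhere. MERGE.13389.5 and MERGE.18246.10 were above 0 in all 6, at 0.389 to 0.679 and 0.191 to 0.935. These 3 loci were thus detected in treated SHR through isoforms other than their WKY-only ones, namely MERGE.12007.2, MERGE.13389.12 and MERGE.18246.9. Untreated SHR also had MERGE.13389 and MERGE.18246 through other isoforms, with listed sums of 1.24 ± 1.19 and 1.56 ± 0.669 (SD, n = 6 each). For MERGE.12007 no other isoform was listed for WKY and SHR.

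Limma compared SHR+Iso with SHR for the 3 isoforms that passed the filter, and 2 of them had an unadjusted p under 0.05. It called 1, MERGE.15654.8, where 42.2% of the 289 transcripts tested were called. This isoform had 1.34, 4.50, 0.0622, 1.15, 4.36 and 14.3 in SHR replicates 1 to 6 and 0, 0, 0, 2.27, 0 and 0.229 in SHR+Iso, with 0 in all WKY libraries. The groups overlapped, and the log2 difference was -1.54 ± 0.51 (SE, limma adjusted p = 0.0307), or -5.41 with an offset of 0.01. The call held in 12 of 18 alternatives, with adjusted p from 0.0132 to 0.170, and was lost without SHR replicate 2, 5 or 6, without SHR+Iso replicate 2, with a pseudocount of 0.01 and after quantile normalization. The last of these moved the median of all tested from -0.89 to -0.29. This comparison shares the SHR libraries with the strain comparison. MERGE.15654.7 and MERGE.9962.30 did not pass, with log2 differences of -0.78 ± 0.52 and -0.53 ± 0.23 (SE, limma adjusted p = 0.156 and 0.0547). MERGE.9962.30 had at least 1.02 in every SHR library and at most 0.930 in SHR+Iso, so it entered the main fit through SHR alone. The filter fixed part of its outcome there, and its adjusted p is a description. MERGE.15654.7 was called in 0 of 18 alternatives. MERGE.9962.30 was called in 2 of 18, without the filter and without SHR+Iso replicate 1, with adjusted p from 0.0449 to 0.509 over the alternatives, and its difference turned to 0.21 after quantile normalization.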

How the data were processed

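RNA was sequenced from rat kidney after ribosomal RNA depletion, per the labels' protocols. The authors deposited 1 normalized signal per transcript and library, on a scale not stated. The submitters' processing notes name limma, and no source used here gives the aligner, quantifier, build or annotation. Total depth is unknown. An exact 0 can be a failed estimate, so transcripts are described as listed at 0. The members and lists were chosen with earlier results of these data known.

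Further isoforms were matched by assembled locus number. Differences were fitted with limma 3.58.1 in R 4.3.3 (trend, robust) on log2(value + 1) over all listed transcripts that reached 1 in 6 or more of 12 libraries (5 where a library was left out), two-sided, with Benjamini-Hochberg adjustment and a threshold of 0.05. The fit was also run on simulated data, with normally distributed log2 values and fewer changed transcripts than were called here. That setting differs from these lists, so it cannot show that the p-values hold here. The p-values refer to these preselected lists alone. Folds of low transcripts are understated on this scale. Alternatives changed the pseudocount, filter, scaling, trend and block and left out each library. Named were members with a WKY mean of at least 10, Ensembl members, those listed for SHR+Iso, the steadiest, least steady and lowest, those of 6 loci with several members, transcripts just outside the rule, and the called isoforms with the largest differences. Other names, such as neighbouring loci, were chosen after their values were seen. The main fit did not pair libraries by replicate number. Deviations from the group means correlated at -0.059 to 0.10 between SHR and WKY libraries of equal number. Between SHR+Iso and SHR it was -0.036 to 0.073. SHR replicates 1, 2 and 6 correlated best with the WKY library of their own number, as did SHR+Iso replicate 5 with SHR. Such weak correlations do not settle whether the libraries were paired.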

Additional observations from a re-analysis of the deposited data

Results flagged for a closer look

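In 10 of 63 groups of 6 libraries checked, 1 library lay far from the other 5. The groups were 35 named members in WKY and 14 named further isoforms in each strain. Other transcripts named above, such as MERGE.15653.11, were not checked. Chance gives about 1 in 20 for normally distributed values. Some of the checked transcripts were named for their wide spread and others are at or near 0, so the count is a description. Of the WKY-only transcripts, ENSRNOT00000043861 had 1.78 in WKY replicate 2, MERGE.22326.4 had 4.28 in replicate 1, MERGE.14931.1 had 5.68 in replicate 3, MERGE.26402.5 had 5.04 in replicate 2 and MERGE.26402.1 had 2.70 in replicate 6. Each was the highest of its 6. Values of isoforms of 1 locus depend on each other, so the pair within MERGE.26402 is not independent.

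Among the further isoforms of these loci, MERGE.15654.2 had 3.30 in WKY replicate 6, MERGE.12613.2 had 0.0540 in WKY replicate 2 and MERGE.6169.2 had 2.90 in WKY replicate 4. In SHR, MERGE.25694.7 had 0.0424 in replicate 6, where the other 5 were at 0, and MERGE.15654.88 had 0.250 in replicate 1.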

How the results depend on the processing

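The number of WKY-only transcripts followed the threshold. It was 121 by the rule, 194 with SHR values of up to 0.1 taken as 0, 206 with 0 asked of 5 of the 6 SHR libraries, and 44 with at least 1 asked of all WKY libraries. It was 124 with SHR values of up to 0.01 taken as 0, and 124 to 141 without any 1 library. Asking for a value above 0 in only 5 of the 6 WKY libraries would add 49 transcripts. The median level and the median coefficient of variation moved by less than the spread under each alternative run. Strain calls among the further isoforms were 28 as reported, 72 without a filter on low values and 5 with a filter at 5, where fewer transcripts were tested, 27 with the replicate block, 27 to 29 with another pseudocount, quantile normalization or no trend, and 33 to 40 without any 1 library. Of 256 alternatives for the 14 isoforms whose strain difference is printed, 248 kept their direction and their side of the threshold and 0 reversed; the other 8 were all of MERGE.6169.2, the replicate block among them. Treatment calls were 1 as reported, 0 with a pseudocount of 0.01 or after quantile normalization, 3 without a filter and 0 to 2 without any 1 library; none was testable with a filter at 5. The treatment difference of MERGE.9962.30 was -0.53 and became 0.21 after quantile normalization. The causes were not tested. Values lack a stated depth, so no detection limit was given for a listed 0.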
